A study of Mus musculus with 4 samples.

Results

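The genes described here are 10 cytosolic sensors of foreign or misplaced nucleic acid and their regulators, namely Ifih1, Ddx58, Dhx58, Mavs, Trim25, Eif2ak2, Zbp1, Aim2, Ifi204 and Trim30a. They were taken by gene symbol from a deposited table of 21044 genes, and all 10 were found there. RNA was sequenced from microglia, the resident macrophages of the brain, isolated from the corpus callosum of mice at postnatal day 7. Of the 4 libraries, 2 came from mice called Lag3cKO-Cx3, with the genotype label ko, and 2 from Lag3fl/fl mice, with the genotype label wt, and these groups are written cKO and WT. The name of the cKO line points to a Cx3cr1 driver acting on the floxed Lag3 alleles, which the labels give for WT mice without naming a driver. The kind of Cre, the strain, the way microglia were isolated and whether animals were pooled are not given by the sources used here. The p-values therefore reflect the spread between libraries, which may be technical.

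Ifih1, Ddx58 and Dhx58 encode MDA5, RIG-I and LGP2, the RIG-I-like receptors. MDA5 and RIG-I bind double-stranded RNA in the cytosol and signal through the mitochondrial adaptor MAVS to the kinases and transcription factors that switch on type I interferon genes. Separate sensors bind cytosolic DNA, as AIM2 does, or unusual Z-form nucleic acid, as ZBP1 does, and PKR, encoded by Eif2ak2, binds double-stranded RNA and halts translation. Most of these genes are themselves induced by interferon, so their transcripts are often read together with those of antiviral effectors.

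Total counts were 16770162 and 14645187 in cKO replicates 1 and 2, and 15855913 and 14973059 in WT replicates 1 and 2. Lag3 had 595 and 257 counts in the cKO libraries, against 6064 and 10007 in the WT libraries. Cx3cr1, the gene that the name of the cKO line points to, was at 3404 and 3034 CPM (read counts relative to library size, scaled by TMM) in cKO and 6443 and 6554 CPM in WT. Microglial identity was clear in each library, since all 8 listed markers were counted. They summed to 28960 and 27180 CPM in cKO and 27740 and 30680 CPM in WT. Single markers moved within that sum. Of the 8, 6 had a log2 fold change, cKO over WT, above 0 and 2 below, the median being 0.19. Tmem119 was at 773.2 and 1172 CPM in cKO and 380.9 and 540.9 CPM in WT. P2ry12 was at 2831 and 3382 CPM in cKO and 1654 and 2773 CPM in WT. The second cKO library stood apart. It had a count for 12787 genes, against 15491 in cKO replicate 1 and 14840 and 15899 in WT replicates 1 and 2. Across genes, which are not independent replicates, r between its log2 CPM and each other library was 0.837 to 0.85, against 0.917 to 0.943 among the other 3. It also had no counts for the Y-linked transcripts Ddx3y, Uty, Kdm5d and Eif2s3y, all present in the other 3 libraries, and 290.4 CPM of Xist. Replicate 1 of cKO had 117 counts of Xist, or 6.97 CPM, together with these Y-linked transcripts, and both WT libraries had 0 counts of Xist, so sex and genotype are not balanced. Results below are therefore given per library, and with and without cKO replicate 2 where it matters.

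Across the 10 genes, 9 had cKO means above WT by a log2 fold change of 0.45 to 2.00, and Aim2 had a difference near 0. None passed edgeR's quasi-likelihood test over all 13086 genes tested, which called 0 genes (0.0%), each member having a Benjamini-Hochberg adjusted p = 0.9997. Lag3 had the same edgeR adjusted p = 0.9997, at a log2 fold change of -4.345. A high adjusted p from edgeR therefore does not show that a gene was unchanged. At an unadjusted p under 0.05 the same test gave 608 genes, among them Ifih1, Trim30a and Dhx58, all higher, where 1.77% of tested genes were higher at that level. DESeq2, run as the alternative tool, called 54 genes, which is 0.436% of the 12375 with an adjusted p, and 0.186% were called higher, with Ifih1 the member among them. For Lag3 the DESeq2 adjusted p was 1.3e-20. All 10 were fitted higher, as were 48.2% of genes tested, although Aim2 was lower by limma on FPKM and with the replicate block. Their median log2 fold change was 1.12, beside -0.03 for all genes tested. That median was 0.68 without cKO replicate 2 and 1.81 without WT replicate 1. Astrocyte markers were also fitted higher, the median of 12 being 1.55 on the log2 scale, and their part in the levels of the sensors was not tested.

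**Figure D1:**
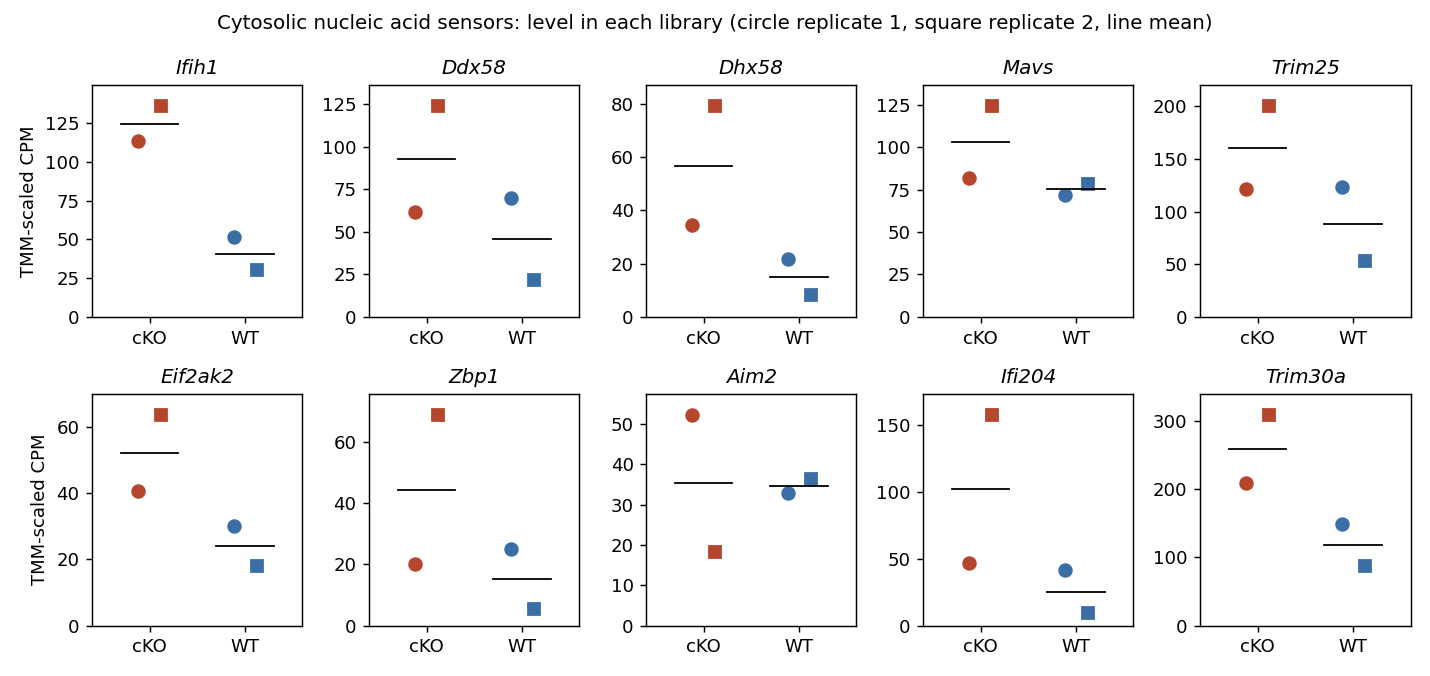
Level of each of the 10 genes in TMM-scaled CPM (vertical axes, from 0, a separate scale per gene) in the cKO and WT libraries, with circles for replicate 1, squares for replicate 2 and a line at the mean of each group. In 6 genes both cKO points lie above both WT points, whereas Ddx58, Trim25, Zbp1 and Aim2 overlap.

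Ifih1 (ENSMUSG00000026896, chromosome 2, 62595798 to 62646255 on the minus strand, GRCm38), the sensor of long double-stranded RNA, had 1902 and 2043 counts in the cKO libraries and 807 and 440 in the WT libraries. Its level was 113.3 and 136.2 CPM in cKO, against 51.5 and 30.0 CPM in WT. Both cKO libraries lay at more than double the higher WT library. The log2 ratio of the higher to the lower library was 0.27 within cKO and 0.77 within WT, while the SD in CPM was similar in both groups. The mean was 124.7 ± 16.2 CPM in cKO and 40.8 ± 15.2 CPM in WT (SD, n = 2 each), a log2 fold change of 1.61 (standard error 0.35), an edgeR unadjusted p = 0.0066 and a DESeq2 adjusted p = 0.0217. Leaving out each library moved the log2 fold change over 1.27 to 2.04, and it was 1.47 without cKO replicate 2.

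Ddx58 (ENSMUSG00000040296, chromosome 4, 40203773 to 40239828 on the minus strand), which encodes RIG-I, the sensor of short RNA with a 5′ triphosphate, did not separate the groups. It was at 61.9 and 124.1 CPM in the cKO libraries and at 69.7 and 21.98 CPM in the WT libraries. The first cKO library lay slightly below the first WT library, and the spread within WT, 1.64 on the log2 scale, was wider than the fold change of 1.02 (standard error 0.67). The log2 fold change was 0.41 without WT replicate 2 and 2.07 without WT replicate 1.

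Dhx58 (ENSMUSG00000017830, chromosome 11, 100694884 to 100704271 on the minus strand), encoding LGP2, a relative without signalling domains that tunes the other receptors, had 577 and 1187 counts in cKO and 339 and 122 in WT. That is 34.4 and 79.1 CPM in the cKO libraries and 21.6 and 8.33 CPM in the WT libraries. The groups did not overlap, but each of them spread by more than 2-fold inside itself. The log2 fold change was 1.92 with a standard error of 0.68, an edgeR unadjusted p = 0.0396 and a DESeq2 adjusted p = 0.265, and it was 1.20 without cKO replicate 2. An antisense gene, Dhx58os, overlaps 141 of the 3272 exonic bases of Dhx58, and the sources used here do not give the strand setting of the counting.

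Per transcript length the 3 receptors changed their order from library to library. Their summed level was 33.2 and 59.9 FPKM (fragments per kilobase, relative to library size) in cKO replicates 1 and 2, and 22.5 and 9.14 FPKM in WT replicates 1 and 2. Ifih1 made up 41.9% and 28.5% of that sum in cKO, and 27.7% and 39.4% in WT, so its share overlapped between the groups. Dhx58 made up 31.7% and 41.4% in cKO and 29.0% and 27.2% in WT. Ddx58 had the remaining 26.5% and 30.1% in cKO, below its 43.4% and 33.4% in WT. The ratio of Dhx58 to Ddx58 was 1.20 and 1.37 in cKO and 0.668 and 0.816 in WT. With 2 libraries a group, an exact permutation test of such a ratio cannot give a two-sided p below 0.333.

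**Figure D2:**
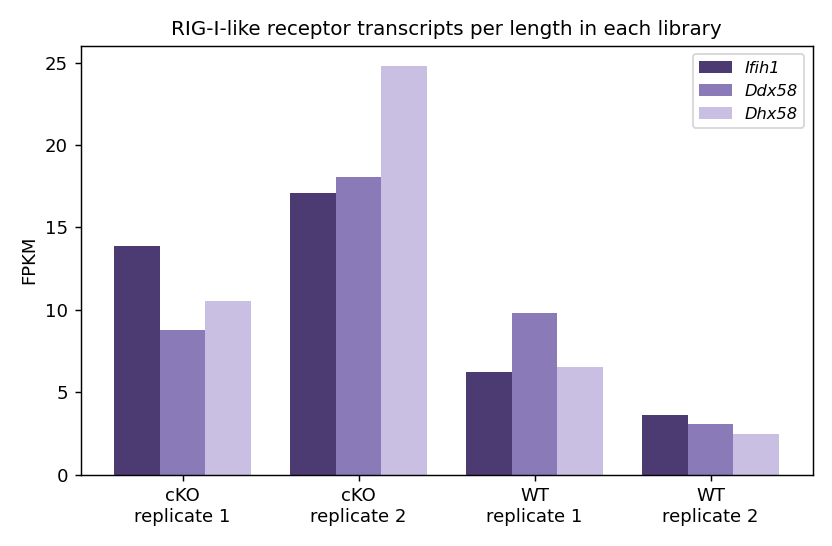
FPKM of Ifih1, Ddx58 and Dhx58 (bars from 0) in each library. Ifih1 is the highest of the 3 in cKO replicate 1 and WT replicate 2, Dhx58 in cKO replicate 2 and Ddx58 in WT replicate 1.

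Mavs (ENSMUSG00000037523, chromosome 2, 131234063 to 131248025 on the plus strand), the adaptor that both signalling receptors share, varied little. It was at 81.9 and 124.3 CPM in the cKO libraries and at 71.9 and 78.6 CPM in the WT libraries. The lower cKO library exceeded the higher WT library by only 0.06 on the log2 scale. The log2 fold change was 0.45 with a standard error of 0.29, and 0.12 without cKO replicate 2.

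Trim25 (ENSMUSG00000000275, chromosome 11, 88999376 to 89020293 on the plus strand) encodes a ubiquitin ligase known for activating RIG-I. It had 121.0 and 200.1 CPM in the cKO libraries and 123.7 and 53.2 CPM in the WT libraries. Replicate 1 of each group had nearly the same level, and the 2 remaining libraries lay far above and far below them. The log2 fold change of 0.86 had a standard error of 0.50 and was 0.37 without WT replicate 2.

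Eif2ak2 (ENSMUSG00000024079, chromosome 17, 78852564 to 78882573 on the minus strand), encoding the kinase PKR, was at 40.7 and 63.5 CPM in the cKO libraries and at 30.0 and 18.0 CPM in the WT libraries. The groups did not overlap, and the mean was 52.1 ± 16.2 CPM in cKO and 24.0 ± 8.50 CPM in WT (SD, n = 2 each). The log2 fold change of 1.12 had a standard error of 0.43, and was 0.76 without cKO replicate 2. On the opposite strand Gm26637 overlaps 174 of the 5113 exonic bases of Eif2ak2.

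Zbp1 (ENSMUSG00000027514, chromosome 2, 173206612 to 173218923 on the minus strand), the sensor of Z-form nucleic acid that can start necroptosis, had the widest spread inside the groups. Its counts were 336 and 1033 in cKO, against 391 and 78 in WT. The levels were 20.01 and 68.9 CPM in the cKO libraries and 24.9 and 5.32 CPM in the WT libraries, so that the first cKO library lay below the first WT library. The fold change of 1.55 on the log2 scale had a standard error of 0.97 and ran over 0.40 to 3.05 when each library was left out.

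Aim2 (ENSMUSG00000037860, chromosome 1, 173350879 to 173466040 on the plus strand), a sensor of cytosolic DNA that assembles an inflammasome, was at its lowest in the second cKO library. It had 878 and 275 counts in the cKO libraries and 517 and 533 in the WT libraries, which is 52.3 and 18.3 CPM in cKO and 33.0 and 36.4 CPM in WT. The cKO libraries thus lay on either side of a narrow WT pair. The mean was 35.3 ± 24.0 CPM in cKO and 34.7 ± 2.41 CPM in WT (SD, n = 2 each), and the log2 fold change of 0.03 (standard error 0.57) was 0.59 with the second cKO library left out and -0.92 with the first left out.

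Ifi204 (ENSMUSG00000073489, chromosome 1, 173747293 to 173766943 on the minus strand), a mouse member of the same PYHIN family and a DNA-binding relative of human IFI16, had the highest fold change of the 10. Its counts were 790 and 2363 in cKO and 652 and 138 in WT. At 47.1 and 157.5 CPM in the cKO libraries and 41.6 and 9.42 CPM in the WT libraries, the groups did not overlap, but replicate 1 of each group differed by only 0.18 on the log2 scale. The fold change was 2.00 on the log2 scale with a standard error of 0.93, and 0.88 without cKO replicate 2. Of its distinct 50-base transcript words, 20.02% also occur in another annotated gene, most of them in Ifi211, so its count is uncertain as to which paralog gave the reads.

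Trim30a (ENSMUSG00000030921, chromosome 7, 104409025 to 104465193 on the minus strand), a rodent TRIM protein known as a brake on Toll-like receptor signalling, had the highest FPKM of the 10 in 3 of the 4 libraries. It had 3493 and 4625 counts in the cKO libraries and 2327 and 1283 in the WT libraries. The levels were 208.0 and 308.4 CPM in cKO, against 148.4 and 87.6 CPM in WT, without overlap. The mean was 258.2 ± 71.0 CPM in cKO and 118.0 ± 43.0 CPM in WT (SD, n = 2 each), a log2 fold change of 1.13 (standard error 0.35) and an edgeR unadjusted p = 0.0267. It was 0.82 without cKO replicate 2, and 5.98% of its 50-base transcript words also occur in Trim30d.

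**Figure D3:**
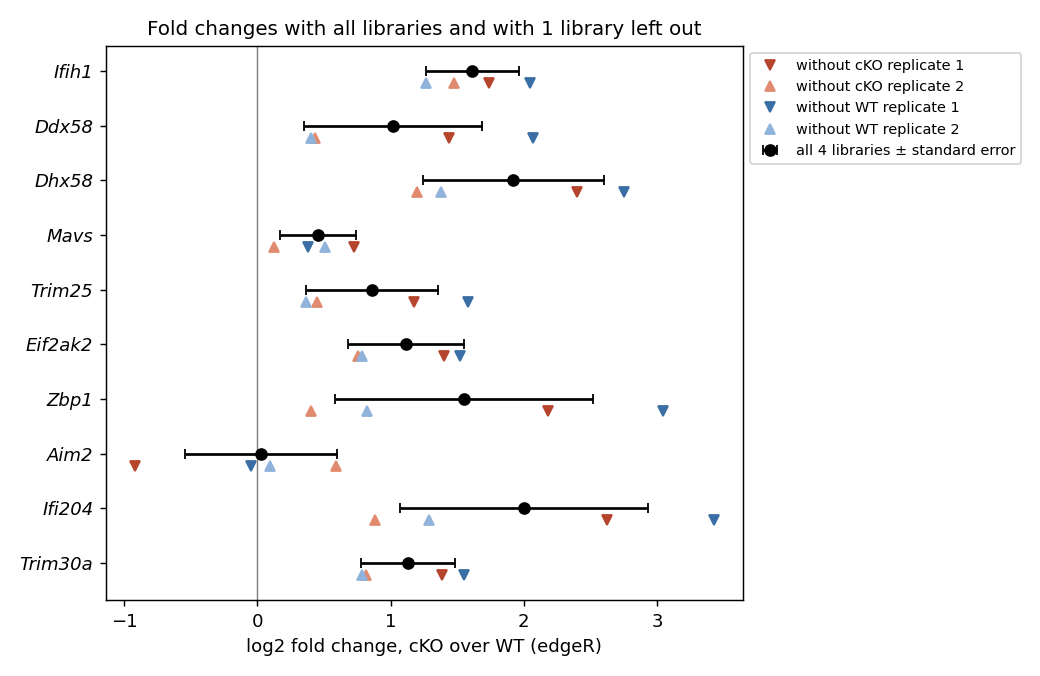
Log2 fold change of each gene, cKO over WT, from edgeR with all 4 libraries (black points, bars are the standard error) and with 1 library left out (triangles). Ifih1 stays between 1.27 and 2.04, Zbp1 runs over 0.40 to 3.05, and Aim2 takes values on both sides of 0.

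The start regions of the genes were searched for the letters that interferon-activated factors are known to bind. Promoter sequences from RefSeq (GRCm38.p6) matched 7 of the 10 genes, with 8 start sites, and Dhx58, Zbp1 and Ifi204 were not matched. In the 250 bases before each start, GAAA, then any 2 bases, then GAAA, the core of the interferon-stimulated response element bound by STAT and IRF factors, occurred on either strand in 1 of the 7 genes, Trim30a, and in 3.46% of 27025 genes. TTCNNNGAA, the gamma-activated site bound by STAT dimers, occurred in 1 of the 7, Eif2ak2, and in 8.13% of those genes. The stretches shown are the one around each match, in capitals, and for comparison the last 60 bases before the start of Ifih1, where neither was found.
Trim30a, chr7:104465200-104465249, minus strand: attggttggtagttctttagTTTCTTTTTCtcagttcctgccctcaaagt
Eif2ak2, chr17:78882722-78882770, minus strand: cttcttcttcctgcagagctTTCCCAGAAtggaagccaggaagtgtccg
Ifih1, chr2:62646256-62646315, minus strand: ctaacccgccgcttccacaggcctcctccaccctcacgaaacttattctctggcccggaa
In Trim30a the match begins 36 bases before the start and reads in that form on the strand opposite to the gene. In Eif2ak2 the match begins 178 bases before the start. A match describes letters only, and a window without one says nothing about the factor.

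In 6 of the 10 genes (Ifih1, Dhx58, Mavs, Eif2ak2, Ifi204 and Trim30a) both cKO libraries lay above both WT libraries, as they did in 15.8% of all genes tested. No member had both cKO libraries below both WT libraries, where 20% of all genes tested did. Without cKO replicate 2 the count was 7 genes, beside 36.0% of all genes with 1 library fewer, and without WT replicate 2 it was 6, beside 25.7%. Without cKO replicate 1 or WT replicate 1 it was 9 genes in each case, beside 36.7% and 24.6%. In 5 of the 10 genes (Ifih1, Dhx58, Eif2ak2, Ifi204 and Trim30a) the libraries stood in the same order from low to high, namely the second WT library, the first WT library, the first cKO library and the second cKO library, an order found in 5.13% of all genes tested and one chosen after the values were seen.

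Differences inside the groups were also wide. Over the 10 genes the median log2 ratio of cKO replicate 2 to cKO replicate 1 was 0.68, and the first of these was higher by at least 2-fold in Zbp1, Ifi204 and Dhx58, as in 14.2% of all genes tested. The median log2 ratio of WT replicate 1 to WT replicate 2 was 0.99, and the first of these was higher by at least 2-fold in Ddx58, Dhx58, Zbp1, Ifi204 and Trim25, as in 7.57% of all genes tested. Between replicate 1 of each group, the median difference was only 0.31, with Ifih1 at 1.13 the farthest apart and Zbp1, Ddx58 and Trim25 lower in cKO.

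**Figure D4:**
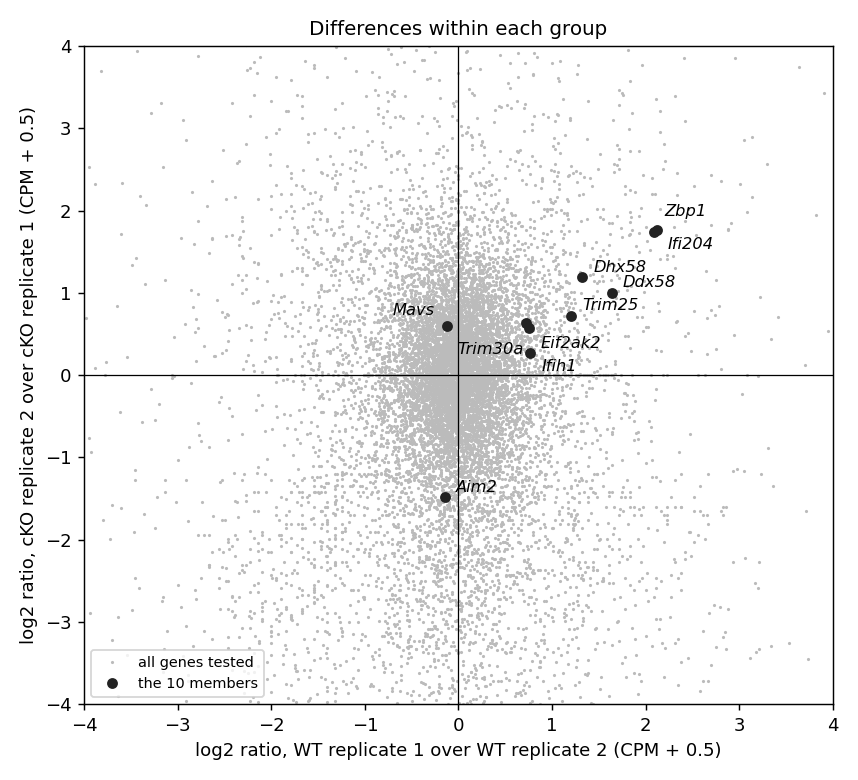
Log2 ratio of WT replicate 1 over WT replicate 2 (horizontal) against cKO replicate 2 over cKO replicate 1 (vertical), from CPM with 0.5 added, for the 10 genes (black) and all genes tested (grey, 470 of them outside the axes). In 8 of the 10 genes both ratios are above 0, Mavs lies near 0 on the horizontal axis and Aim2 lies below 0 on the vertical axis.

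Markers of other cells differed between the libraries too. The 11 listed markers of neutrophils and monocytes summed to 25.2 and 147.1 CPM in cKO replicates 1 and 2 and to 24.9 and 19.0 CPM in the WT libraries. Of 8 tested, 6 were fitted higher and 2 lower in cKO, the median log2 fold change being 1.28. In 3 of the 8 (Cxcr2, Ccr2 and Ngp) both cKO libraries exceeded both WT libraries, beside 15.8% of all genes tested. In 1, Mmp8, both lay below both WT libraries, beside 20% of all genes tested. DESeq2 called 2 of the 8, Ngp higher and Mmp8 lower, beside 0.436% of genes with an adjusted p. Cxcr2 was at 10.4 and 16.8 CPM in cKO and 2.36 and 2.87 CPM in WT. Ly6g was at 0 in cKO replicate 1 and in both WT libraries. Mmp8 was at 0 in both cKO libraries and at 6.38 and 5.19 CPM in WT. The 14 astrocyte markers summed to 265.4 and 549.2 CPM in cKO and 239.8 and 192.1 CPM in WT, sums to which Gfap gave 82.3 and 201.2 CPM in cKO and 140.9 and 89.4 CPM in WT. All 12 tested astrocyte markers were fitted higher in cKO, beside 48.2% of all genes tested, and in 8 of them both cKO libraries exceeded both WT libraries, beside 15.8%. Their median log2 fold change was 1.55, above the 1.12 of the sensors, and their median log2 ratio of cKO replicate 1 to WT replicate 1 was 1.15, beside 0.31 for the sensors. Of the 14, 1 and 3 were at 0 in cKO replicates 1 and 2, and 0 and 1 in WT replicates 1 and 2. The untested markers, S100b and Gjb6, had few counts and were lower in cKO. S100b had 1 and 0 counts in cKO and 9 and 11 in WT, and Gjb6 had 0 and 0 in cKO and 2 and 6 in WT. The other marker lists had lower medians. For 5 tested oligodendrocyte lineage markers the median was 0.14, with 4 fitted higher and 1 lower. It was -0.35 for 6 endothelial and mural markers (2 higher, 4 lower) and -0.76 for 3 neuron markers (1 higher, 2 lower). For 4 tested markers of plasmacytoid dendritic, T and NK cells it was 0.17 (3 higher, 1 lower). The T cell marker Cd3e, which was not tested, had 0 counts in both cKO libraries, and 6 and 0 counts in WT. The part of these cells in the levels of the sensors was not tested, and in bulk RNA a change in the share of a cell type and a change in RNA per cell cannot be told apart.

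Set side by side, the 4 pairwise tables of the authors, which share libraries, called Ifih1 in all 4 and no member lower in any, beside 15.8% and 17.6% of all genes called lower for cKO replicate 1 over WT replicates 1 and 2, and 28.7% and 31.7% for cKO replicate 2. A gene is called there at a 2-fold or greater difference with p under 0.05. For Ifih1 the authors' deposited tables gave folds of 2.23 and 2.74 for cKO replicates 1 and 2 over WT replicate 1, and 3.86 and 4.75 over WT replicate 2. In the authors' deposited table of cKO replicate 1 against WT replicate 1, Ifih1 was the member called higher, beside 20.3% of all genes there. Against WT replicate 2, the authors' deposited tables called 8 members higher for each cKO library, beside 17.2% of all genes for cKO replicate 1 and 17.1% for cKO replicate 2. For cKO replicate 2 against WT replicate 1, 6 members were called higher in the authors' deposited table, beside 18.1% of all genes. Being called higher in all 4 held for 1.62% of all genes in any of the authors' deposited tables. The widest fold in the authors' deposited tables was 17.5, for Ifi204 in cKO replicate 2 over WT replicate 2, and the fold of the same gene was 1.15 in cKO replicate 1 over WT replicate 1.

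Ranked per length, Trim30a was the highest of the 10 at 63.7 ± 18.5 FPKM in cKO and 28.3 ± 10.5 FPKM in WT (SD, n = 2 each). Mavs followed at 31.3 ± 9.57 FPKM in cKO and 22.1 ± 1.21 FPKM in WT. In cKO the next were Ifi204 at 29.3 ± 22.7 and Trim25 at 28.3 ± 10.3 FPKM, with means closer to Mavs and each other than their SDs. Library by library, Mavs still exceeded Trim25 in all 4. The other 6 lay between 10.2 FPKM for Aim2 and 17.6 FPKM for Dhx58 in cKO. Most of their spreads overlapped, but Ifih1, at 13.9 and 17.1 FPKM in cKO, exceeded Eif2ak2, at 7.97 and 12.7 FPKM. Ifih1 was also the higher of that pair in both WT libraries. In WT the order below Mavs was Trim25 at 15.2 ± 8.63, Aim2 at 9.74 ± 0.604 and Ifi204 at 7.07 ± 6.34 FPKM. The remaining 5 were at 4.23 to 6.41 FPKM in WT, with overlapping spreads. Aim2 thus stood above Ifih1, Ddx58 and Dhx58 in cKO replicate 1 and WT replicate 2, and was the lowest of the 10 in cKO replicate 2.

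Genes that act with the sensors were described from lists drawn up for each role. In the 7 lists that follow, of 6 to 17 tested genes each, edgeR called 0 genes and DESeq2 called 0. An edgeR unadjusted p under 0.05 was found for 3 genes (Trim56, Ifi211 and Mndal), as for 608 of all 13086 genes tested. These 3 are therefore not a result about the lists. Among 17 tested regulators of RIG-I-like receptors, 12 were fitted higher and 5 lower in cKO, the median log2 fold change being 0.28, and in 3 the cKO libraries both exceeded the WT pair, a share near the 15.8% of all genes tested. In 2 others both cKO libraries lay below the WT pair, beside 20% of all genes tested. Usp18, which removes ISG15 and dampens interferon receptor signalling, was at 14.1 and 57.2 CPM in cKO, against 13.0 and 1.09 CPM in WT. Usp15, a deubiquitinase, was at 97.5 and 143.6 CPM in cKO and 62.3 and 81.7 CPM in WT, and Ddx3x, an RNA helicase, at 202.8 and 140.1 CPM in cKO and 116.5 and 123.6 CPM in WT. Usp4 was lower, at 112.9 and 127.8 CPM in cKO and 153.5 and 170.3 CPM in WT.

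Of 15 kinases, adaptors and transcription factors downstream of Mavs, 8 were fitted higher and 7 lower, with a median of 0.00. Irf7, the interferon-induced amplifier of interferon gene transcription, was at 12.4 and 33.7 CPM in cKO and 11.8 and 2.12 CPM in WT, a log2 fold change of 1.73 (standard error 1.02.) Traf6, a ubiquitin ligase of the pathway, was at 26.7 and 26.1 CPM in cKO and 46.9 and 38.9 CPM in WT. Azi2 and Tomm70a, which help bring the kinase TBK1 to the signalling complex, had log2 fold changes of 0.74 and 0.98 without overlap of the groups. In 3 of the 15 genes both cKO libraries exceeded both WT libraries, beside 15.8% of all genes tested. In 4 of the 15 both lay below, beside 20% of all genes tested.

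The cGAS-STING arm and the enzymes that clear nucleic acid were divided in direction, with 5 of 11 tested genes fitted higher, 6 lower and a median of -0.03. Trim56, a ubiquitin ligase linked to that arm, was at 3.69 and 2.87 CPM in the cKO libraries and at 39.7 and 10.4 CPM in the WT libraries. Its log2 fold change of -2.93 had a standard error of 0.84, an edgeR unadjusted p = 0.0194 and a DESeq2 adjusted p = 0.102. Rnaseh2b and Rnaseh2c, subunits of the ribonuclease that removes RNA from DNA hybrids, had log2 fold changes of -0.63 and -0.61, both below WT in both cKO libraries. That held for 3 of the 11 genes, beside 20% of all genes tested. In 1 of the 11 both cKO libraries lay above, beside 15.8%. Samhd1, a dNTP hydrolase, overlapped between the groups at 81.5 and 142.7 CPM in cKO and 97.0 and 54.5 CPM in WT.

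Effectors that act after Aim2 and Zbp1 numbered 7 tested genes with 0.20 as their median log2 fold change, 5 fitted higher and 2 lower. Casp8 was at 349.3 and 449.4 CPM in cKO and 349.8 and 347.3 CPM in WT, and Casp1, Ripk3 and Mlkl also overlapped between the groups, Mlkl at 9.80 CPM or less in each library. Eif2ak3 and Eif2ak4, other eIF2 alpha kinases, had log2 fold changes below 0. Eif2ak3 was at 2.92 and 1.67 CPM in cKO and 8.67 and 9.76 CPM in WT, and Eif2ak4 at 31.9 and 16.6 CPM in cKO and 29.0 and 47.5 CPM in WT. The list of these kinases, their substrate and its phosphatase subunits had 2 genes fitted higher, 4 lower and a median of -0.31.

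Paralogs of the members were looked at in the same way. Of 6 tested PYHIN relatives of Aim2 and Ifi204, 5 were fitted higher and 1 lower in cKO, the median log2 fold change being 2.62, and in 5 the groups did not overlap, cKO being higher. Of all genes tested, 48.2% were fitted higher and 15.8% had both cKO libraries above both WT libraries. Ifi207 was at 42.6 and 108.7 CPM in cKO and 31.6 and 9.62 CPM in WT, and Ifi211 at 6.91 and 27.6 CPM in cKO and 3.06 and 0.751 CPM in WT. Mndal had no count in WT and 1.79 and 3.07 CPM in cKO. With WT set to 3 counts in each library, its observed mean in cKO was 12.3-fold higher. That value allows for counting error in WT only. Of the 50-base words of Ifi211, 72.8% also occur in another gene, so these counts are not independent of that of Ifi204. Of 8 neighbours of Trim30a, 7 were fitted higher and 1 lower, with a median of 1.01, beside the same 48.2%, and Trim30d was at 63.6 and 63.9 CPM in cKO and 42.2 and 19.3 CPM in WT.

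**Figure D5:**
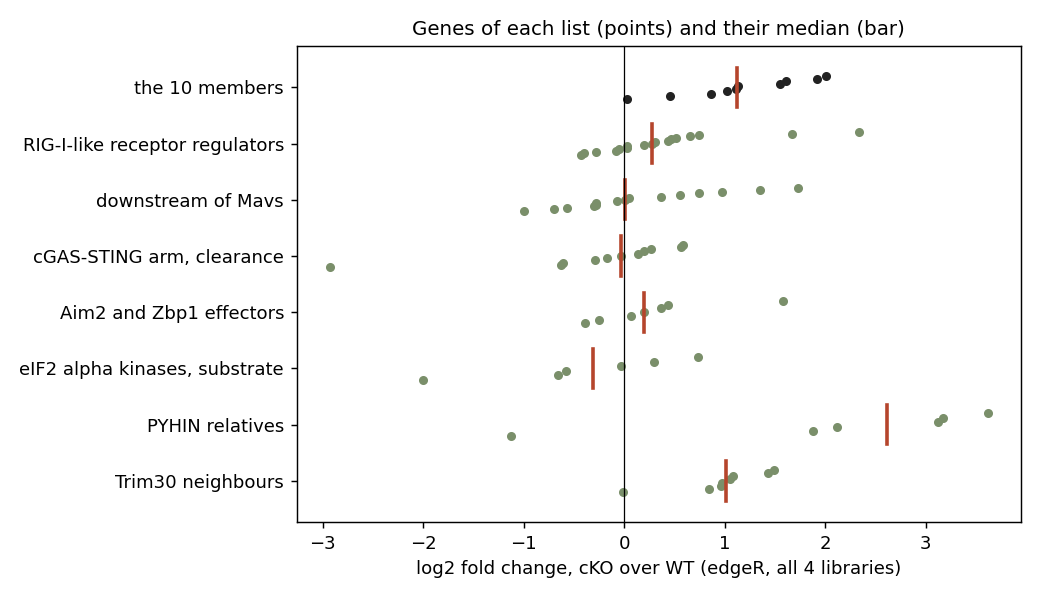
Log2 fold change, cKO over WT, of the 10 sensors and of the tested genes of each list (points), with the median of each (bar). The medians lie at 1.12 for the sensors, 2.62 for the PYHIN relatives, 1.01 for the Trim30 neighbours and between -0.31 and 0.28 for the other 5 lists. Mndal is drawn with WT set to 3 counts in each library.

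The sensors had smaller fold changes than the oligoadenylate synthetases, which are RNA sensors of another kind, and than antiviral effectors, a comparison of values without a test. Over 9 tested genes of the synthetases with RNase L the median log2 fold change was 2.29, and over 14 effectors it was 2.58, beside 1.12 for the 10 sensors. The spread inside the groups was wider there too. The median log2 ratio of cKO replicate 2 to cKO replicate 1 was 1.27 for the synthetases and 1.65 for the effectors, beside 0.68 for the sensors. That of WT replicate 1 to WT replicate 2 was 1.83 for the synthetases and 1.58 for the effectors, beside 0.99. Oas2 of the synthetases was at 34.0 and 82.7 CPM in cKO and 10.3 and 1.23 CPM in WT.

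Among 9426 genes with a mean of at least 5 CPM, those whose centred log2 profile over the 4 libraries lay nearest to the mean profile of the 10 sensors were Lgals3bp, Cyfip2, Atp1b2, Mpp7 and Ahctf1, at Euclidean distances of 0.109 to 0.242. Lgals3bp was at 67.0 and 118.7 CPM in cKO and 59.2 and 27.6 CPM in WT. Of the sensors themselves, Trim30a, Eif2ak2 and Trim25 were the closest to that mean profile, at 0.222 to 0.282, and Aim2 the farthest, at 2.21, beyond the median distance of 1.65 for all genes ranked. Atp1b2, the third nearest, is also among the 14 astrocyte markers listed, at 15.1 and 22.1 CPM in cKO and 12.9 and 5.39 CPM in WT. With 4 libraries, this likeness is a description only.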

How the data were processed

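RNA-seq of 4 libraries (2 cKO, 2 WT) was analysed. Tools named in the submitters' processing notes are HTSeq 0.6.0, TopHat2 2.0.12 and Bowtie2 2.2.3, with mm9 as build. The gene positions in the deposited table are those of GRCm38 for 92.1% of the 21008 genes shared with GENCODE M21, and for all 10 members. The authors deposited FPKM values, and per the file headers 4 pairwise tables with read counts, a normalized signal, a ratio as fold change, the log2 of it, and p-values whose test the sources used here do not name.

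The joined counts cover 18459 genes, in which 4315 of 73836 cells, none of them in a member, were recovered from FPKM (100.0% whole within 1e-06). edgeR 4.0.16 (R 4.3.3) with TMM, filterByExpr and the quasi-likelihood F test was fitted on 13086 genes, with Benjamini-Hochberg adjustment and a threshold of 0.05. Standard errors were derived from the F statistic. CPM are TMM-scaled, and log2 ratios of libraries use CPM + 0.5. Alternatives were DESeq2 1.42.0, other factors and filters, limma 3.58.1 on FPKM, a replicate block and leaving out libraries. Scripts were tested on simulated data. Beyond the 10 members, the text names Lag3, up to 4 genes per list by smallest edgeR p, and the 5 nearest profiles, and other names were picked with their values in view. The members and lists were chosen with earlier results of these data known.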

Additional observations from a re-analysis of the deposited data

How the results depend on the processing

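The direction of 9 of the 10 members was the same in all 14 alternatives run for each, and that of Aim2 turned in 6. Aim2 had a log2 fold change of -0.091, -0.116 and -0.104 by limma on FPKM with 1, 0.1 and 0.5 added, of -0.16 with the replicate block, and of -0.92 to 0.59 when each library was left out. DESeq2 called 54 genes, with Ifih1 among them (log2 fold change 1.62, adjusted p = 0.0217, where the adjusted p of Ifih1 was above the threshold in the other 13 alternatives). Leaving out each library gave 0 to 748 genes, the highest without cKO replicate 1, a fit that gives the single cKO library the spread of the WT pair, and no member was among them. The members' median was 0.68 to 1.81 over leaving out each library and 1.105 to 1.188 otherwise. Counting members higher in every one of the authors' deposited tables, 1 passed their own call, as did 1.62% of all genes in any table. At the authors' adjusted p under 0.001 with no minimum fold, 4 passed (Ifih1, Dhx58, Eif2ak2 and Trim30a). With a 4-fold minimum added to the call 0 passed, although single tables still held members past it. The share of all genes passing these added rules was not counted, so the counts are not a result about the members. In places the authors' adjusted p lay below their p, from a test not named. For Trim25 in cKO replicate 1 against WT replicate 1 it was 0.161, below 0.771, so how it was adjusted is not known here. Across genes, the deviations of libraries with the same number had a correlation of -0.02. That value cannot show whether such libraries share an origin, and the labels give no shared origin. With the replicate block 0 genes were called, as in the main fit without it, so that count cannot decide on a pairing. Counts of the members were 78 or more in each library, so depth limits them less than the spread between libraries does.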

Other observations

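Of the interferon genes themselves, Ifna5 was the one with a count in the joined tables, with 40 counts in cKO replicate 2 and 0 counts in cKO replicate 1 and in both WT libraries. The other 7 interferon genes on the list were not found by name in the joined counts.

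Isg15, which is usually read as a marker of interferon exposure, was low in each library at 0.2 and 2.7 CPM in cKO and 0.8 and 0.1 CPM in WT, whereas Rtp4, an interferon-induced gene chosen after its values were seen, was at 219.3 and 489.2 CPM in cKO and 161.2 and 23.5 CPM in WT. Of the 50-base transcript words of Isg15, 3.96% occur in another annotated gene. The low level of Isg15 was not tested further.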
